A study of Mus musculus with 8 samples.

Results

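A set of 10 genes of the vascular growth factor system was followed in single-nucleus RNA-seq of mouse gastrocnemius muscle: the ligand genes Vegfa, Vegfb, Vegfc and Angpt1, the receptor genes Flt1, Kdr, Flt4 and Tek, and the co-receptor genes Nrp1 and Nrp2. They were taken by name and not by a cut on their values, but with earlier results of these data known. All 10 were among the 21112 genes present in every matrix. Nuclei of wild-type C57BL/6 mice were profiled in 4 groups of 2 libraries each. Young mice were 3 months old and Old mice 20 months old. Running mice began treadmill training at 11 months and ran for 2 months at 9 m/min in sessions of 30 min, and Sedentary mice were not trained. In each group 1 library was prepared on the 10x system and 1 on the DNBelab C system, so the 2 libraries of a group also differ in how they were made. The labels do not state whether the 2 libraries came from different animals. The p-values below measure only the spread between these libraries, which the fits share in part or wholly over genes.

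VEGF ligands bind receptor tyrosine kinases on endothelial cells. VEGFA acts through the receptors encoded by Kdr, the main signalling receptor of blood vessels, and Flt1, which binds VEGFA tightly and limits what reaches KDR, while VEGFC acts through the receptor encoded by Flt4 and drives lymphatic growth. Neuropilins hold ligands next to these receptors, and angiopoietin 1 binds the receptor encoded by Tek and keeps vessels quiet and sealed. In skeletal muscle, fibres are known to make VEGFA, and its loss from fibres thins the capillary bed.

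After filtering, 64803 of 65280 nuclei were retained. The 4 10x libraries held 10587 to 12991 nuclei and 23163039 to 44095620 UMIs, and the 4 DNBelab libraries held 4228 to 4772 nuclei and 4664362 to 8900162 UMIs. Clusters were given a class from marker lists that left out the 10 genes, and each class name stands for nuclei like that type by those markers. Myonuclei, the nuclei of muscle fibres, numbered 5641 to 8288 in the 10x libraries. Stroma, which joins fibro-adipogenic progenitors, tenocytes, pericytes and smooth muscle, numbered 941 to 3570, and blood endothelium 228 to 525. The DNBelab libraries were thin outside muscle fibres, with 22 to 94 stromal and 9 to 44 endothelial nuclei each. The DNBelab Old library stood apart, since 73.8% of its nuclei carried no class against at most 11.7% in any other library, and its 9 endothelial nuclei were not used. Pairs of 10x libraries shared 30 to 46 cell barcodes.

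The stretches before the starts of 1 ligand gene and 3 receptor genes are shown because these genes carry the class pattern described below. Each is the 250 bases before the outermost RefSeq start on GRCm38.p6, read 5′ to 3′ along the strand of the gene. Vegfa lies at chr17:46032378-46032627 on the minus strand, Flt1 at chr5:147726012-147726261 on the minus strand, Kdr at chr5:75978456-75978705 on the minus strand and Tek at chr4:94739039-94739288 on the plus strand. Capitals mark the GC box letters GGGCGG and the ETS core letters GGAA on either strand, which did not overlap in these stretches.
Vegfa: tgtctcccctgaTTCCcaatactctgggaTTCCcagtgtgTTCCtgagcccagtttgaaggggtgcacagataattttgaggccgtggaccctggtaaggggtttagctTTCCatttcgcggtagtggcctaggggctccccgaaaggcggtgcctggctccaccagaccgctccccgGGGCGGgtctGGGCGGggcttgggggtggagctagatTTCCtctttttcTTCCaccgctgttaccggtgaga
Flt1: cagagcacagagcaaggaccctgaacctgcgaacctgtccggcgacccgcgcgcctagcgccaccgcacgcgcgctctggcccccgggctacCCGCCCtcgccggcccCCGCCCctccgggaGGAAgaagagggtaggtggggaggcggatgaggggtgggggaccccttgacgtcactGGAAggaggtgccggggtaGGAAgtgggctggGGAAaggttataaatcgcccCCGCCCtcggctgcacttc
Kdr: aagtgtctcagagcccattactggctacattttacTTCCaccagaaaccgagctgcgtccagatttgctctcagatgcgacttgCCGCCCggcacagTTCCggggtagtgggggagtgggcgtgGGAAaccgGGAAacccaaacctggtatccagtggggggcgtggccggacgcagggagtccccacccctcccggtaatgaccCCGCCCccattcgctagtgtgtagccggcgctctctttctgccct
Tek: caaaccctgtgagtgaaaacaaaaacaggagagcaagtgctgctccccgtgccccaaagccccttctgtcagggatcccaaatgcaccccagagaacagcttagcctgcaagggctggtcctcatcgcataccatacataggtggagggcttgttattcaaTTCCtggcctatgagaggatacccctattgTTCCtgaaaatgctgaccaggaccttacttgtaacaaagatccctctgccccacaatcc

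GC boxes are bound by SP family factors, which serve many genes, and ETS factors such as ERG are known regulators of endothelial genes. The stretch of Vegfa held 2 GC boxes and 6 ETS cores, that of Flt1 3 and 4, that of Kdr 2 and 4, and that of Tek 0 and 2. A RefSeq promoter was at hand for 9 of the 10 genes, all but Angpt1, and 8 of these 9 held a GC box before a start, with Tek the exception. Over all 32851 mouse promoters of this length 32.7% held a GC box and 93.4% an ETS core, so the ETS letters do not set these genes apart. ACGTG, the core of the hypoxia response element, occurred in 16.6% of all promoters and before 1 of the 9 genes, in a second Vegfa window at chr17:46025164-46025413.

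Among myonuclei, stroma and blood endothelium, the ligand gene Vegfa was highest in myonuclei. The receptor genes were highest in endothelium, except Flt4 in the DNBelab Sedentary library. Adipocytes exceeded myonuclei for Vegfa in 4 of 4 10x libraries. Levels are given as CPM, the UMIs of a gene in 1000000 UMIs of all nuclei of a class in a library, and 4 values in a row follow the order Old, Young, Running, Sedentary. In myonuclei, Vegfa stood at 687, 437, 901 and 502 CPM in the 10x set and at 105, 347, 509 and 619 in the DNBelab set. In endothelium it stood at 247, 111, 289.9 and 243 CPM in the 10x set, and at 136 in Young, 289.7 in Running and 321 in Sedentary of the DNBelab set. Endothelium was below myonuclei in 7 of 7 libraries, by a mean log2 ratio of -1.29 ± 0.44 (SD, n = 7), and stroma was below myonuclei in 8 of 8, by -1.09 ± 0.38 (SD, n = 8). Endothelium and stroma did not separate for Vegfa (log2 ratio -0.11 ± 0.22, SD, n = 7). Of all Vegfa UMIs in a 10x library, 77.9% to 85.7% lay in myonuclei, which gave 60.7% to 77.0% of all UMIs. Class comparisons are descriptions with no test, because the classes were built from the same nuclei.

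**Figure D1:**
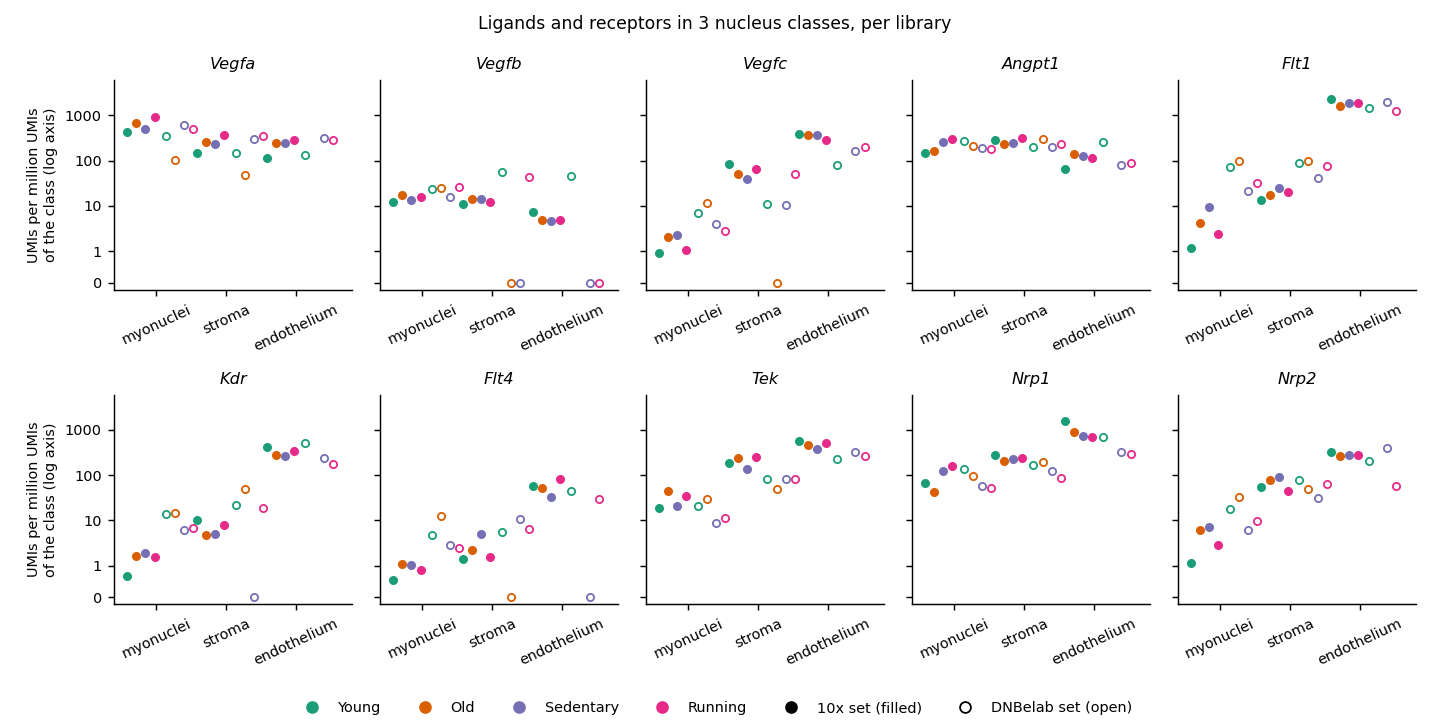
Level of the 10 genes in myonuclei, stroma and endothelium, 1 point per library, in CPM of the class on a log axis (values under 0.2 are drawn at 0). Filled points are the 10x set and open points the DNBelab set, coloured by group. Vegfa is highest in myonuclei of these 3 classes and Flt1, Kdr, Flt4, Tek, Nrp1, Nrp2 and Vegfc in endothelium. Stroma is higher for Flt4 in DNBelab Sedentary and for Nrp2 in DNBelab Running.

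Some Vegfa UMIs outside fibres came with UMIs of fibre genes. Myofibre markers summed to 19.1% to 35.3% of their myonuclear level in 10x endothelium, where Vegfa was at 25.5% to 48.4% of its own, and to 41.1% to 64.8% in DNBelab endothelium, where Vegfa was at 39.2% to 56.9%. The part of free fibre RNA in these Vegfa values was not tested. Adipocytes differed in this respect, with Vegfa at 799.7, 696, 968 and 541 CPM, or 107% to 159% of the myonuclear level, and myofibre markers at 7.70% to 16.2% in the 10x libraries.

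The other ligand genes did not share the pattern of Vegfa. Vegfb, whose product binds FLT1 and neuropilin 1 and is known for roles in lipid handling, was low throughout, at 12.3 to 26.7 CPM in myonuclei of the 8 libraries. It was lower in endothelium than in myonuclei by a log2 ratio of -0.62 ± 1.02 (SD, n = 7), less than its spread, and among the finer 10x classes it was highest in adipocytes in 4 of 4 libraries, at 45.6, 39.4, 65.0 and 22.2 CPM. Vegfc, the lymphatic growth factor gene, was an endothelial rather than a fibre transcript. It stood at 369, 384, 282 and 366 CPM in Old, Young, Running and Sedentary endothelium of the 10x set and at 79.4 to 203 CPM in the DNBelab set, and exceeded myonuclei in 7 of 7 libraries by a log2 ratio of 6.68 ± 1.73 (SD, n = 7). In stroma it was also above myonuclei, 38.7-fold in the 10x set and 4.12-fold in the DNBelab set.

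Angpt1, the ligand gene for the receptor TEK, was spread over both source classes. In myonuclei it stood at 163, 149.7, 301 and 256 CPM in the 10x set and at 210.4, 271, 179.8 and 185 in the DNBelab set. In stroma it stood at 236, 288, 318 and 240.3 CPM in the 10x set and at 293, 204, 232 and 198 in the DNBelab set. In 10x adipocytes it stood at 275, 637, 445 and 244 CPM, above both source classes in all but the Sedentary library. Stroma was above myonuclei in 6 of 8 libraries, but the log2 ratio of 0.27 ± 0.43 (SD, n = 8) was within the spread. Endothelium was below myonuclei in 7 of 7 libraries, by -0.79 ± 0.49 (SD, n = 7). An annotated antisense gene, Gm17473, overlaps Angpt1, and with the strand setting of the counting not given in the sources used here, reads of the 2 genes cannot be told apart.

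Levels of different genes were also set per length, although whether UMI counts rise with length in these libraries was not tested. In CPM the median 10x level in myonuclei was 594 for Vegfa, 14.6 for Vegfb and 210 for Angpt1. Per kb of gene length, a scale for nuclear RNA with introns counted, it was 38.6 CPM per kb for Vegfa, 2.82 for Vegfb and 0.831 for Angpt1, a gene of 252.3 kb. Per kb of exon the same medians were 139, 9.09 and 40.3 CPM per kb. Vegfa led in CPM and on both scales, while Vegfb stood above Angpt1 only per kb of gene length. Whether intronic reads were counted is not given in the sources used here.

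The receptor genes Flt1 and Kdr were far higher in endothelium than in myonuclei and stroma. Flt1, the VEGF receptor that also acts as a trap, stood at 1628, 2243, 1898 and 1848 CPM in endothelium of the 10x set, and at 1440.2, 1246 and 2007 in Young, Running and Sedentary of the DNBelab set. In myonuclei it stood at 4.12, 1.15, 2.37 and 9.65 CPM in the 10x set and at 96.5, 70.7, 32.3 and 21.4 in the DNBelab set. Endothelium was above myonuclei in 7 of 7 libraries, by a log2 ratio of 7.56 ± 2.35 (SD, n = 7). The fold was 583 in the 10x set and 42.2 in the DNBelab set. Endothelial markers in myonuclei moved alongside, at 0.256% to 0.811% of their endothelial level in the 10x set and 1.10% to 4.21% in the DNBelab set, and their part in the smaller DNBelab folds was not tested.

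Kdr, the main signalling receptor, followed the same order as Flt1. It stood at 271, 413, 345 and 262 CPM in endothelium of the 10x set, and at 510.3, 174 and 241 in Young, Running and Sedentary of the DNBelab set. Its levels in myonuclei were 0.592 to 1.85 CPM in the 10x set and 6.23 to 14.8 in the DNBelab set. Endothelium exceeded myonuclei in 7 of 7 libraries, 243-fold in the 10x set and 35.02-fold in the DNBelab set. Endothelium gave 1.40% to 2.64% of all UMIs of a 10x library, yet held 62.3% to 87.3% of its Flt1 UMIs and 47.7% to 61.0% of its Kdr UMIs.

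Flt4, the VEGFC receptor gene, was the lowest receptor in blood endothelium, at 33.0 to 82.6 CPM in the 10x set and 0 to 45.4 in the DNBelab set. Tek, the angiopoietin receptor gene, stood at 459.9, 571, 517 and 382 CPM in endothelium of the 10x set and at 227 to 321 in the DNBelab set. It was above myonuclei by a log2 ratio of 4.26 ± 0.73 (SD, n = 7), but above stroma by only 1.46 ± 0.35 (SD, n = 7), the smallest mean endothelial lead over stroma of the 4 receptor genes. In the 10x set Flt1 was 102-fold, Kdr 47.0-fold and Flt4 23.2-fold higher in endothelium than in stroma, against 2.42-fold for Tek. In the DNBelab set the folds were 22.3, 20.8 and 3.32 against 3.24 for Tek. The Flt4 fold of that set lies near the floor. In its Sedentary library, with 23 endothelial nuclei, Flt4 stood at 0 CPM in endothelium and 10.4 CPM in stroma. The ratio of that library favours endothelium only through the pseudocount added before ratios were taken. The DNBelab set therefore cannot show whether the leads of Flt4 and Tek over stroma differ.

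The stromal Tek signal lay in fibro-adipogenic progenitors, the mesenchymal cells between fibres. There it stood at 240.3, 216, 276 and 149.8 CPM in the 10x set. In the same nuclei endothelial markers summed to 21.2 to 65.2 CPM, or 0.291% to 1.30% of their level in endothelium, so Tek was present where the endothelial markers were near 0. Muscle stem cells held Tek at 139.5, 90.1, 134 and 101 CPM.

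The neuropilin genes were also present in classes outside vessels. Nrp1, the VEGFA co-receptor gene that also binds semaphorins, stood at 883, 1555, 689.9 and 748 CPM in endothelium of the 10x set and at 680.4, 289.7 and 321 in the DNBelab set. It was above myonuclei by a log2 ratio of 3.02 ± 1.02 (SD, n = 7), 10.7-fold in the 10x set and 5.6-fold in the DNBelab set, the smallest mean endothelial lead over myonuclei among the receptor and co-receptor genes. Macrophages also held Nrp1, at 537, 621, 715 and 452 CPM in the 10x set, and so did adipocytes, at 374, 904, 313 and 342. Nrp2, the co-receptor gene tied to VEGFC, stood at 257, 330.4, 277 and 283 CPM in 10x endothelium, and exceeded myonuclei by a log2 ratio of 5.42 ± 1.79 (SD, n = 7). Outside vessels it was high in tenocytes, at 349, 198 and 121 CPM in the 3 10x libraries with enough of them, and in Schwann cells, at 344, 387, 334 and 248 CPM.

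Per kb of gene length, the median 10x level in endothelium was 11.4 CPM per kb for Flt1, 6.75 for Kdr, 5.63 for Nrp1, 3.6 for Tek, 3.35 for Vegfc, 2.43 for Nrp2 and 1.26 for Flt4. Flt1 stood first and Flt4 last on this scale, and also in CPM, at medians of 1873 and 54.7. In CPM Kdr, at 308, stood below Nrp1, Tek and Vegfc. Per kb of exon Flt4 stayed last at 6.64 while Vegfc, at 150.0, passed Flt1, at 139.

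Counts of nuclei gave the same picture as summed levels. In the 10x libraries 77.7% to 93.9% of endothelial nuclei had at least 1 Flt1 UMI, against 0.395% to 2.09% of myonuclei, although the median depth was 957 to 1844 UMIs in endothelium and 1964 to 3722 in myonuclei. With every nucleus thinned to 500 UMIs the shares were 53.1% to 64.5% and 0.0527% to 0.683%. Vegfa was found in 57.9% to 86.3% of myonuclei and 16.2% to 25.3% of endothelial nuclei, and after thinning in 20.2% to 35.5% and 5.26% to 9.58%. At most 3 endothelial nuclei and 11 myonuclei of a library were left out of the thinning for having fewer UMIs.

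**Figure D2:**
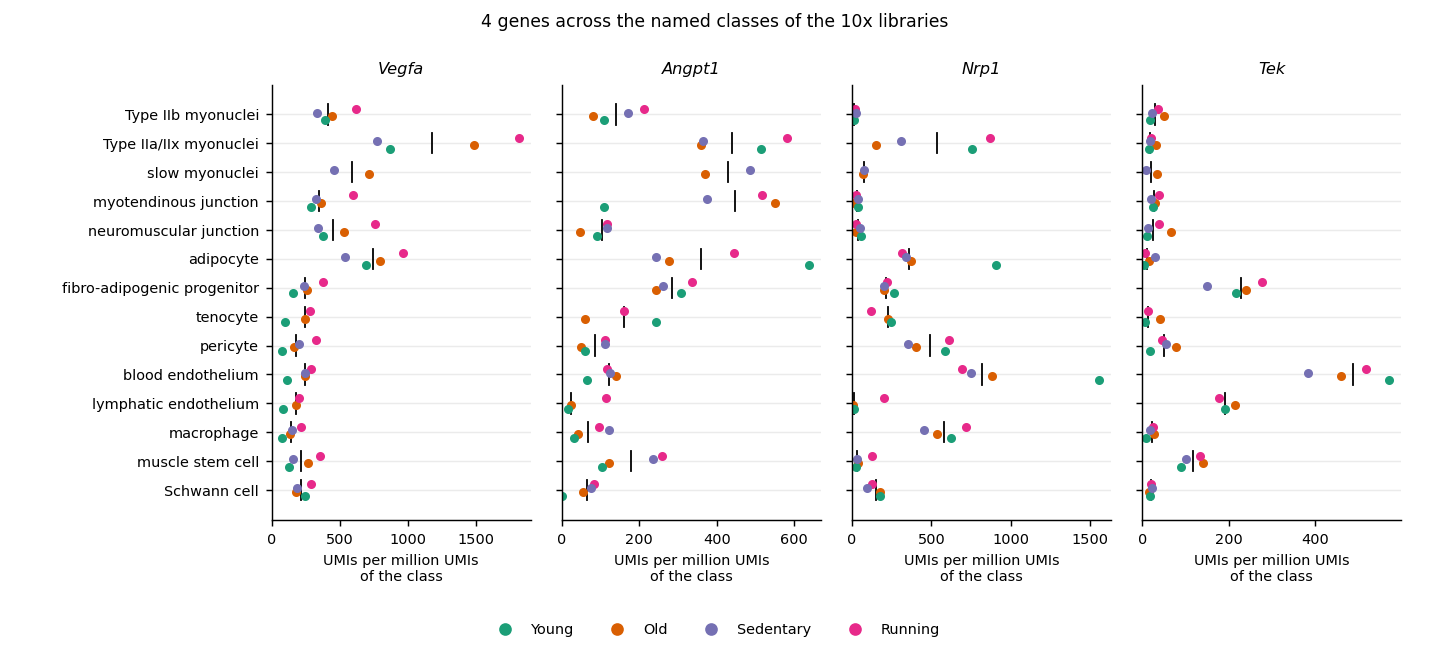
Level of Vegfa, Angpt1, Nrp1 and Tek in 14 named classes of the 10x libraries, in CPM of the class, with 1 point per library coloured by group and a line at the median. Vegfa is highest in Type IIa/IIx myonuclei and adipocytes, Angpt1 is spread over fibre nuclei, adipocytes and fibro-adipogenic progenitors, Tek is highest in blood endothelium and these progenitors, and Nrp1 in blood endothelium, macrophages, Type IIa/IIx myonuclei, pericytes and adipocytes.

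Fibre nuclei were not alike in Vegfa. In Type IIa/IIx myonuclei, the more oxidative fast fibres, Vegfa stood at 1487, 873, 1819 and 776 CPM in the 10x set, and at 134, 518, 991 and 1264 in the DNBelab set. In Type IIb myonuclei, the most glycolytic fibres, it stood at 442, 393, 619.7 and 329.7 CPM in the 10x set, and at 95.9, 300.5, 425 and 489 in the DNBelab set. The Type IIa/IIx level was the higher of the pair in all 8 libraries, and in the 10x set Vegfa was highest in Type IIa/IIx myonuclei among the named classes in 4 of 4 libraries. Slow myonuclei, found in enough number in 2 10x libraries, stood at 715 CPM in Old and 460.1 in Sedentary. Those of the DNBelab set stood at 110.2, 191, 374 and 566 CPM. Whether this class holds like nuclei in both sets was not tested. Young had 1 slow nucleus in the 10x set and 1116 in the DNBelab set.

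Nrp1 showed a wider gap between the same fibre types. It stood at 153, 757, 870.4 and 311 CPM in Type IIa/IIx myonuclei of the 10x set, and at 8.20, 9.19, 18.4 and 27.0 CPM in Type IIb myonuclei. The DNBelab libraries kept the order with a smaller gap, at 169.5, 249, 172 and 201 CPM against 72.9, 57.1, 24.9 and 25.7. Angpt1 was also higher in Type IIa/IIx than in Type IIb myonuclei of the 10x set, at 359, 513, 582 and 365 CPM against 81.0, 109, 213 and 172, and of the DNBelab set, at 334, 380.3, 289 and 312 CPM against 199, 181, 121 and 131. At the myotendinous junction, where fibres meet tendon, Angpt1 stood at 551, 109, 518 and 375 CPM in the 10x set and at 669, 726, 708 and 696 in the DNBelab set.

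**Figure D3:**
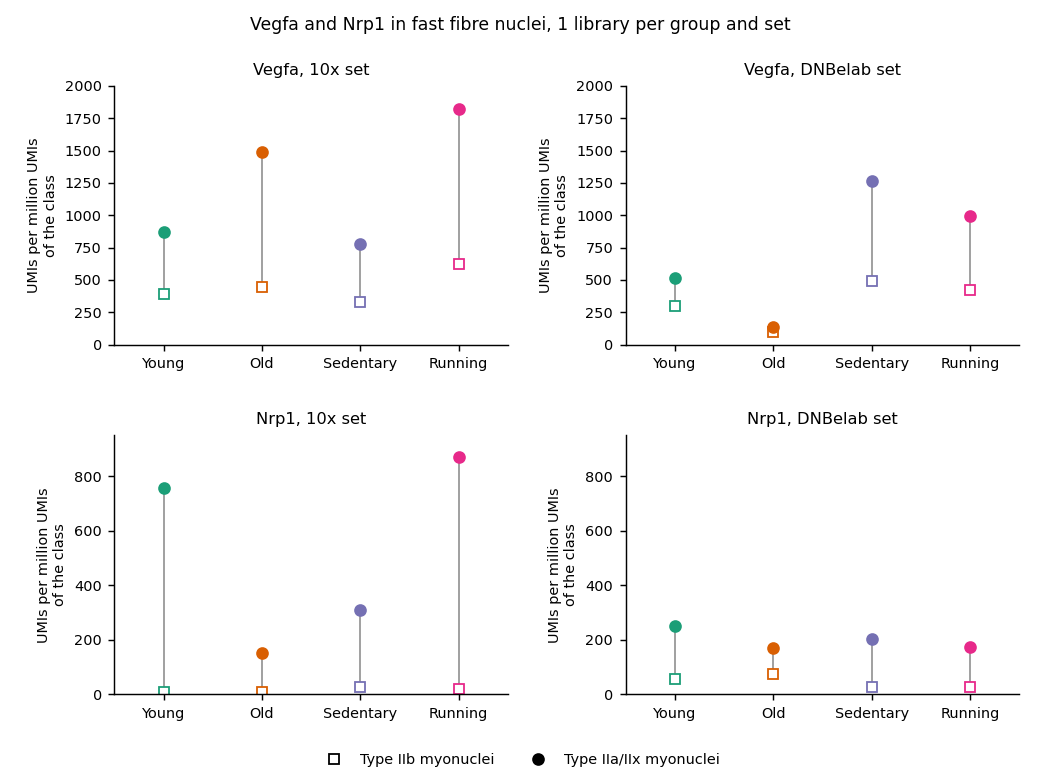
Vegfa and Nrp1 in Type IIb (open squares) and Type IIa/IIx (filled circles) myonuclei, 1 library per group and set, in CPM of the class. The Type IIa/IIx point lies above the Type IIb point in all 8 libraries for both genes, while the order of the groups differs between the 10x and DNBelab sets.

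Vessel types within the 10x endothelium differed in ligand and receptor genes. Sub-clusters were named arterial (263 nuclei), capillary (176) or venous (103) from markers without the 10 genes, lymphatic endothelium (357 nuclei from 3 libraries with enough of them) was a class of its own, and 885 of 1427 blood endothelial nuclei stayed unnamed. The unnamed nuclei include sub-clusters of 225 and 140 nuclei whose capillary score, 1.05 and 1.39, exceeded the 0.593 of the named capillary sub-cluster, so the capillary values below rest on a minority of capillary-like nuclei. Libraries were summed, and the intervals are exact 95% Poisson intervals that cover counting error only. Vegfc was highest in arterial nuclei, at 1184 CPM (1092 to 1282), against 425 (345 to 519) in venous and 167 (111 to 242) in capillary nuclei. By library the arterial level was 1097, 1314, 986 and 1567 CPM, above the venous and capillary levels in 4 of 4. Lymphatic nuclei, which carry the VEGFC receptor gene Flt4, held Vegfc at 8.35 CPM (3.36 to 17.2).

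Of the 3 named vessel types, Kdr and Flt1 were highest in the capillary nuclei in 4 of 4 libraries, although Young held 6 capillary and 16 venous nuclei and Sedentary 15 venous nuclei, below the minimum of 20 used for classes. Kdr stood at 520 CPM (416 to 641) in capillary nuclei against 132 (103 to 168) in arterial and 131 (88.7 to 188) in venous nuclei. Flt1 stood at 3045 CPM (2787 to 3322) in capillary nuclei against 1455 (1352 to 1563) in arterial and 1574 (1415 to 1745) in venous nuclei. Lymphatic nuclei held Flt1 at 25.04 CPM (15.5 to 38.3) but kept Kdr at 374 (334 to 418). The 885 unnamed blood endothelial nuclei held Kdr at 378 CPM and Flt1 at 1901, between the capillary level and the other named levels.

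Flt4 was the lymphatic receptor gene, at 887 CPM (825 to 953) against 131 (82.3 to 199) in capillary, 44.7 (28.4 to 67.1) in arterial and 30.7 (12.3 to 63.2) in venous nuclei. Over the 3 libraries lymphatic Flt4 ranged from 701 to 1075 CPM. Its co-receptor gene Nrp2 was high in venous nuclei, at 995 CPM (870.0 to 1133), and in lymphatic nuclei, at 722 (665 to 781), and low in arterial nuclei, at 58.3 (39.4 to 83.3). The venous level of Nrp2 was 875, 1336, 872 and 1188 CPM by library, the highest of the 3 vessel types in 4 of 4, with Young and Sedentary below 20 venous nuclei.

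Nrp1 ran the other way, at 1182 CPM (1023 to 1359) in capillary, 694 (624 to 770.1) in arterial and 574 (480.1 to 681) in venous nuclei, with the capillary level highest in 3 of 4 libraries. Its lymphatic level of 87.1 CPM (68.2 to 109) came mostly from the Running library, at 201 CPM against 6.12 in Old and 9.06 in Young. Tek was higher in arterial nuclei, at 749 CPM (676 to 827), and in venous nuclei, at 749.5 (641 to 871), than in capillary nuclei, at 382 (294 to 488), although in the Sedentary library the capillary level of 527 exceeded the venous level of 411. In the summed libraries Tek was therefore lowest, and Kdr highest, in capillary nuclei among the blood vessel types.

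**Figure D4:**
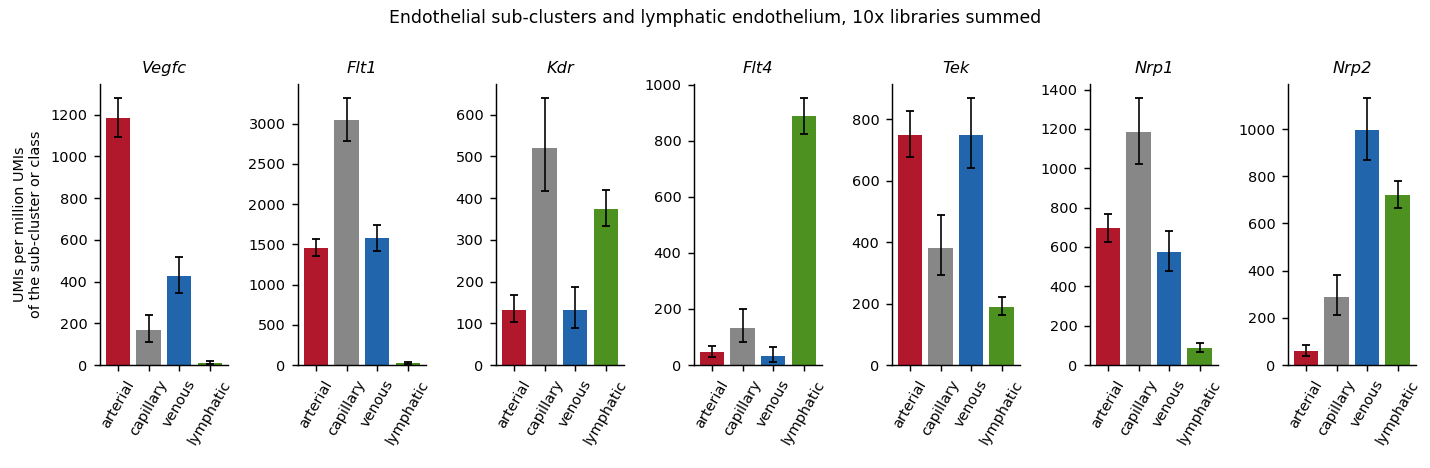
Level of 7 genes in arterial, capillary and venous sub-clusters and in lymphatic endothelium of the 10x libraries summed, in CPM, with exact 95% Poisson intervals for counting error. Vegfc is highest in arterial, Flt1, Kdr and Nrp1 in capillary, Nrp2 in venous and Flt4 in lymphatic nuclei.

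Old and Young muscle were compared to ask whether age moved these genes, with edgeR's quasi-likelihood test on summed UMIs and adjustment over all genes tested. None of the 10 genes passed an adjusted p of 0.05 in all nuclei, myonuclei, stroma or endothelium, and none had an unadjusted p under 0.05 there. Over all genes, in edgeR 0% of 20324 were called in all nuclei, where 2.74% had an unadjusted p under 0.05, and 0% of 18842 in myonuclei, where 2.86% had one. In stroma 0.164% of 10388 genes were called (2.65% unadjusted) and in endothelium 0.00997% of 10026 (1.27% unadjusted). DESeq2 called 0 genes in all nuclei, endothelium and stroma and 2 in myonuclei, neither of them 1 of the 10. In sums over all nuclei, fewer nuclei of a type and less RNA per nucleus cannot be told apart. The median log2 fold change of the 10 genes in all nuclei was -0.13, against 0.19 over all genes tested.

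Vegfa in all nuclei stood at 535 CPM in the 10x Old library against 359.9 in Young, and at 85.2 in the DNBelab Old library against 336 in Young. Old was the higher of the pair in the 10x set, 1.49-fold, and the lower in the DNBelab set, at 0.253 of Young, so the groups overlapped. The edgeR log2 fold change was -0.70 (SE 0.80, 95% interval -2.54 to 1.14, adjusted p = 0.713). Without the DNBelab Old library, most of whose nuclei had no class, it was 0.38, and without the 10x Old library it was -2.70 (adjusted p = 0.0998). In myonuclei the same held, with a log2 fold change of -0.46 (95% interval -1.96 to 1.04), 0.50 without the DNBelab Old library and -2.11 without the 10x one. Fibre types also differed in number, with 978 Type IIa/IIx nuclei among 5641 myonuclei of the 10x Old library and 234 among 7593 of Young. In the DNBelab set they were 189 among 1064 in Old and 1462 among 4134 in Young, so their share went the other way. Within Type IIb myonuclei Old was 1.13-fold Young for Vegfa in the 10x set and 0.322 of it in the DNBelab set, and within Type IIa/IIx myonuclei 1.70-fold and 0.263.

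In endothelium, where 1 Old library stood against 2 Young ones and was assumed to vary like the other groups, the receptor genes Kdr and Nrp1 had the largest Old to Young differences relative to their error. Kdr was at 271 CPM in Old against 413 and 510.3 in Young, a log2 fold change of -1.06 (95% interval -2.28 to 0.16). Nrp1 was at 883 CPM in Old against 1555 and 680.4 in Young, so the Old value lay between the Young ones, and the log2 fold change was -1.04 (95% interval -2.17 to 0.10, edgeR adjusted p = 0.999). Without the 10x Young library the Kdr value was -2.02, with no call. The 10x nuclei behind these values fell into different sub-clusters by group, since 1 unnamed sub-cluster held 187 of 525 Old nuclei and 2 of 228 Young ones and another held 31 Old and 92 Young nuclei. The part of this in the Kdr and Nrp1 values was not tested. Flt1, at 1628 CPM in Old against 2243 and 1440.2 in Young, had -0.56 (95% interval -1.62 to 0.51).

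A few genes did not overlap between the 4 libraries, which is a description and not a call. In all nuclei Vegfc stood at 26.2 and 41.4 CPM in Old against 25.6 and 9.21 in Young, and Nrp2 at 44.7 and 56.7 against 31.8 and 21.9, both higher in Old, as were 19.3% of all genes. Nrp1 stood at 139 and 114 CPM in Old against 165 and 142 in Young, lower in Old as were 3.56% of all genes. In myonuclei Tek was at 44.4 and 29.6 CPM in Old against 18.7 and 21.2 in Young (log2 fold change 0.56, 95% interval -0.42 to 1.53), and 10% of all genes were higher in Old without overlap. Lower in Old without overlap were 4.06% of all genes in myonuclei and none of the 10. In stroma 7.31% of genes were higher and 13.1% lower without overlap, and again none of the 10. With 2, 1 and 1 of the 10 genes set apart in this way, the counts lie near these shares of all genes.

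Running and Sedentary muscle were compared to ask whether training moved the same genes. Again none of the 10 passed edgeR's adjusted threshold at any level, and 0% of genes were called in all nuclei, 0% in myonuclei, 0.00963% in stroma and 0% in endothelium, with 0.482%, 1.15%, 2.03% and 1.6% at an unadjusted p under 0.05. DESeq2 called 0 genes in these 4 fits. The median log2 fold change of the 10 genes in all nuclei was 0.15, against -0.04 over all genes tested.

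Vegfa in myonuclei stood at 901 CPM in the 10x Running library against 502 in Sedentary, and at 509 against 619 in the DNBelab set. Running was 1.80-fold Sedentary in the 10x set and 0.823 of it in the DNBelab set, so the sets went opposite ways and the groups overlapped. The edgeR log2 fold change was 0.14 (SE 0.63, 95% interval -1.32 to 1.60). It was -0.59 without the 10x Sedentary library and 1.20 without the DNBelab one. The split between sets was also present within a fibre type, since Running was 2.34-fold Sedentary for Vegfa in Type IIa/IIx myonuclei of the 10x set and 0.784 of it in the DNBelab set, and in Type IIb myonuclei 1.88-fold and 0.869.

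Vegfb did not overlap between Running and Sedentary in all nuclei, at 17.1 and 26.5 CPM against 13.4 and 15.2, nor in myonuclei, at 16 and 26.7 CPM against 13.1 and 15.4, with a myonuclear log2 fold change of 0.54 (95% interval -0.24 to 1.31). Over all genes 8.18% were higher in Running without overlap in all nuclei and 9% in myonuclei. In stroma Vegfa, Vegfc and Kdr were higher in Running without overlap, as were 13.6% of all genes. Vegfa stood there at 369 and 345 CPM against 229 and 293 (log2 fold change 0.50, 95% interval -0.42 to 1.41). Vegfc stood at 65.0 and 50.2 CPM against 39.7 and 10.4, and Kdr at 7.70 and 18.8 against 5.05 and 0, the DNBelab values resting on few UMIs. In endothelium Nrp2 was lower without overlap, as were 7.56% of all genes, at 277 and 57.9 CPM against 283 and 401 (log2 fold change -0.73, 95% interval -1.80 to 0.35). The opposite directions held none of the 10 genes, against 9.24% of all genes lower in all nuclei, 7.88% lower in myonuclei, 8.86% lower in stroma and 12.7% higher in endothelium. Tek in all nuclei had a log2 fold change of 0.72 (95% interval -0.19 to 1.63), with 75.3 and 15.4 CPM in Running against 38.9 and 12 in Sedentary.

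**Figure D5:**
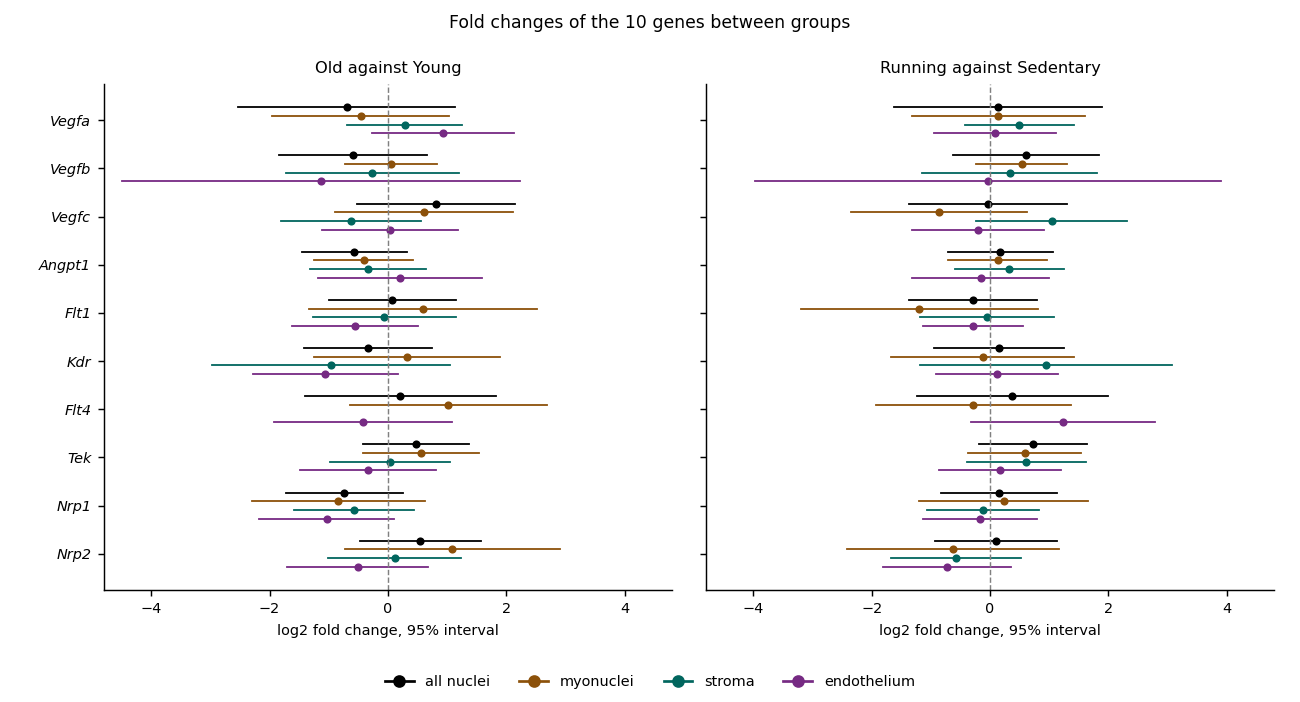
Log2 fold changes of the 10 genes, Old against Young on the left and Running against Sedentary on the right, with 95% intervals from the edgeR fits on all nuclei, myonuclei, stroma and endothelium (Flt4 was not tested in stroma). All intervals cross 0.

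The precision limits what these comparisons can show. The SE of a log2 fold change of the 10 genes was 0.382 to 0.796 in all nuclei, 0.335 to 0.868 in myonuclei, 0.467 to 1.09 in stroma and 0.432 to 2.01 in endothelium, so changes of severalfold were not detectable for some genes. Whether a change in endothelium differed from that in myonuclei was tested directly with an interaction term over 16474 genes, of which edgeR called 0.0243% for age and 0.00607% for training (1.8% and 1.02% unadjusted). None of the 10 was among them. Old endothelium was 1 library in this fit, and edgeR took the spread over genes together. The p-values of the fit therefore do not measure the spread of any gene alone. Nrp2 had the smallest p there, in Old against Young, with a difference of -1.79 (SE 0.80, 95% interval -3.35 to -0.22, edgeR adjusted p = 1), the single 1 of 98 tests of the 10 genes with an unadjusted p under 0.05.

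Genes around the family were read from 5 further lists of 61 genes. By median 10x level, 15 of 16 measured endothelial genes acting after the receptors were highest in endothelium, 9 of 10 angiogenesis inhibitors in stroma, and 7 of 10 other ligands and modulators in stroma. The endothelial count was largely set in advance, because that list was drawn up as endothelial genes. It includes Esm1 and Apln, at medians of only 2.11 and 1.88 CPM in endothelium. Regulators of Vegfa had no single place. Hif1a, the oxygen-sensitive factor gene, stood at median levels of 93.6 CPM in myonuclei, 80.4 in stroma and 109 in endothelium, and Epas1, its relative in vessels, at 49.9, 51.9 and 542 CPM. Ppargc1a and Ppargc1b, coactivator genes of mitochondrial programmes that can raise Vegfa, were highest in myonuclei at 255 and 319 CPM. They stood at 64.3 and 94.3 CPM in stroma and at 89.3 and 95.2 in endothelium.

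In all nuclei none of the list genes was called in either comparison. The median log2 fold changes in Old against Young were -0.48 for the regulators, 0.74 for the other ligands and modulators, 0.34 for semaphorins and plexins, 0.20 for endothelial genes and 0.57 for inhibitors, beside 0.19 over all genes. With training they were -0.13, 0.23, -0.11, 0.00 and 0.13, beside -0.04. Those with the smallest p in Old against Young were Ppargc1b (log2 fold change -0.98) and the oxygen sensor gene Egln1 (-0.85) among regulators, Angptl4 (1.80) and Ccbe1 (1.08), which is needed to process VEGFC, among ligands and modulators, Sema3e (1.29) and Sema3g (1.16) among semaphorins, Ets1 (0.64) and Plcg2 (1.02) among endothelial genes, and Thbs2 (1.35) and Col18a1 (0.89) among inhibitors, each with an edgeR adjusted p of 0.693. In Running against Sedentary they were Egln2 (0.63) and Hif1a (-0.37), Pgf (1.13) and Angptl4 (0.59), Sema3c (0.37) and Sema3e (-0.56), Esm1 (-2.38) and Pik3r1 (-0.62), and Spry2 (0.75) and Thbs2 (-0.51), each with an edgeR adjusted p of 1.

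In stroma 2 semaphorin genes, whose products share the neuropilins with VEGF, were called lower in Old than in Young by edgeR. Sema3a stood at 21.4 CPM in the 10x Old library against 305 in Young, and at 48.8 CPM, a single UMI, against 71.5 in the DNBelab set (log2 fold change -3.61, SE 0.63, adjusted p = 3.79e-05). Sema3d stood at 9.03 against 89.04 CPM, and at 0 UMIs against 2 UMIs in the DNBelab set (log2 fold change -3.14, SE 0.69, adjusted p = 0.00596). The DNBelab pair showed no direction for either gene, since its 22 Old stromal nuclei were too shallow. In the stroma fit edgeR took the spread over genes together, so these p-values do not measure the spread of either gene alone. In the 10x pair tenocytes held Sema3a at 3570 CPM in Young and 295 in Old, and fibro-adipogenic progenitors at 57.6 and 16.8. Tenocytes were 193 of 2512 stromal nuclei in Young and 107 of 3570 in Old, with median depths of 2430 and 853 UMIs. The part of this shift in the Sema3a call was not tested. Both calls were lost with DESeq2 (adjusted p = 1 for both), without the library set term (adjusted p = 1 for both), with only the 4 libraries of the comparison (adjusted p = 0.264 and 0.583) and without the 10x Old library (adjusted p = 0.707 and 0.598). The Sema3a call was also lost without the 10x Young library (adjusted p = 1), and that of Sema3d without the 10x Running (adjusted p = 1), 10x Sedentary (adjusted p = 0.0765) or DNBelab Running library (adjusted p = 0.194).

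Genes whose levels followed Vegfa and Kdr most closely were ranked by Pearson correlation of log2 CPM over 31 class sums of the 10x libraries, which share libraries and depth, among 4825 genes. For Vegfa they were Ppip5k1 (r = 0.854), Gm31356 (r = 0.854), Sfxn5 (r = 0.841), Mlxipl (r = 0.839) and Pcca (r = 0.833). For Kdr they were Itpr1 (r = 0.885), Pecam1 (r = 0.862), a marker used to name endothelium, Syne1 (r = 0.856), Afdn (r = 0.836) and Nck1 (r = 0.827).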

How the data were processed

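Single-nucleus UMI matrices of 8 gastrocnemius libraries were used. Raw UMI counts per gene and nucleus were deposited by the authors, aligned to mm10 with Cell Ranger 6.1.2 (10x set) or, per the matrix headers, PISA 0.12 (DNBelab set). Seurat 4.1.1 is named in the submitters' notes. Nuclei were kept if they had over 200 but under 6000 detected genes, with mitochondrial UMIs below 6%, 12 mitochondrial and 83 ribosomal genes were removed, and 21112 genes remained. Each set was clustered with scanpy 1.11.5 and leidenalg 0.10.2 (2000 variable genes, 30 components, 20 neighbours, resolution 1.0), without the 10 genes, and clusters were named from 22 marker lists. Doublets were left in, because Scrublet found a usable threshold in only 3 libraries. A run without the 6% highest doublet scores was an alternative.

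UMIs were summed per library and class (at least 20 nuclei) and fitted in R 4.3.3 by edgeR 4.0.16 (TMM, quasi-likelihood F-test, filterByExpr, Benjamini-Hochberg, threshold 0.05), with terms for group and library set over all libraries. Log2 ratios between classes used a pseudocount of 0.5 UMI, and the likeness ranking 1 CPM. DESeq2 1.42.0 was an alternative. The script was tested on simulated counts. The named genes were the 10 members, list genes called in a fit or otherwise the 2 of each list with the smallest p in all nuclei, and the 5 genes most like Vegfa and Kdr. Levels of Hif1a, Epas1, Ppargc1a and Ppargc1b by class were picked after their values were seen. The members and lists were chosen with earlier results of these data known. Gene lengths and promoters came from GRCm38.p6 annotation.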

Additional observations from a re-analysis of the deposited data

How the results depend on the processing

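None of the 10 genes was called in any of 1282 alternative values, of which 118 changed sign. Of 360 alternative class ratios 11 moved by more than 1 SD. Many of the 360 leave out 1 library, which cannot shift a mean that far, so the share that stayed is not a measure of stability. Assigning nuclei by marker UMIs with no clustering moved endothelium over stroma for Vegfa to 0.46, Vegfc to 1.67, Kdr to 3.72, Tek to 0.78 and Nrp1 to 1.31, endothelium over myonuclei for Vegfc to 4.90 and Tek to 3.36, and stroma over myonuclei for Flt4 to 0.83. Thinning to 500 UMIs moved endothelium over stroma for Vegfa to 0.15 and Tek to 1.05, and leaving out 3 endothelial sub-clusters (365 nuclei) that scored highest as other classes, chosen after seeing the data, moved that of Vegfa to -0.54. The cause was not tested. Counts of genes called moved as follows. With only the 4 libraries of a comparison they were 4 and 81 in all nuclei (Old against Young, then Running against Sedentary), 1 in myonuclei for age, 2 in endothelium for training, and 3 and 24 in stroma. DESeq2 called 2 in myonuclei for age, 0 in endothelium, stroma and the difference. DESeq2 size factors in edgeR gave 26 and 7 in stroma and 10 in the difference for age. Without the set term endothelium and stroma had 0. Without likely doublets stroma had 9 and 2. Leaving out 1 library at a time gave 0 to 8 and 0 to 428 (428 without Sedentary replicate 2) in all nuclei, 0 to 0 and 0 to 4 in myonuclei, 0 to 4 and 0 to 5 in endothelium, 0 to 38 (38 without Old replicate 2, 0 without Old replicate 1) and 0 to 17 in stroma, and 0 to 18 and 0 to 6 in the difference. Endothelium in Old rests on 1 library, so a run without it, one with only the libraries of that comparison, and the difference without it could not be made. No paired analysis was possible because the labels give no replicate numbers, and the numbers used here follow accession order. The library set term, which every fit carried except where it was dropped, sets the 10x libraries against the DNBelab libraries and is not a pairing of animals.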
